A study of Homo sapiens with 6 samples.

Results

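The genes described here encode the proteins of the cytoplasmic ribosome. They were chosen by name, as protein-coding genes whose symbol is RPL or RPS with a number and an optional A, L or X, or RPSA, RPLP0, RPLP1 or RPLP2. The rule found 80 of the 42307 genes in the deposited tables, 48 of the large subunit and 32 of the small subunit, and used no measured value. RNA was sequenced from U251, an established human glioblastoma cell line whose genotype is labelled WT. The cells had received a negative control plasmid (3 libraries, called control libraries) or a plasmid that overexpresses STING (3 libraries, called STING libraries), at 1 ug in each well, and were collected after 3 days. STING is the adaptor protein that relays the detection of cytosolic DNA, and the comparison answers which transcripts differ when more of it is made. Both groups were transfected, and no untransfected cells are part of the comparison.

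Each ribosome holds 1 copy of nearly every ribosomal protein, and only the acidic proteins of the stalk are present in more. The genes lie scattered over the chromosomes, yet proliferating cells make their products in nearly equal amounts, and unassembled copies are degraded. Their mRNAs are among the most abundant of a cell line. They typically begin with a C followed by an uninterrupted run of pyrimidines, the terminal oligopyrimidine (TOP) motif. Through it LARP1 and mTOR signalling set how well they are translated. A measurement of mRNA level, as here, does not read that step.

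Start-site sequences are shown for 6 genes on which the results below turn, because the TOP run is common in the family. Of these only RPSA passed the test described below. RPS2, which also passed, is not shown, since the RefSeq promoter table held no entry for it. The estimates of RPLP0, RPLP1 and RPL12 were negative and those of RPL26 and RPL39 positive, and none of these 5 passed. Each sequence is 5′ to 3′ on the gene's strand and runs from 40 bases before the RefSeq start to base 30 of the transcript, in GRCh38.p14. Capitals mark the pyrimidine run that begins at the start. The windows are chr3:39406680-39406749 (plus strand, RPSA), chr12:120201082-120201151 (minus, RPLP0), chr15:69452778-69452847 (plus, RPLP1), chr9:127451377-127451446 (minus, RPL12), chr17:8383164-8383233 (minus, RPL26) and chrX:119791601-119791670 (minus, RPL39).
RPSA: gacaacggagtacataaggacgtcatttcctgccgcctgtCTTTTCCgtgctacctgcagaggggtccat
RPLP0: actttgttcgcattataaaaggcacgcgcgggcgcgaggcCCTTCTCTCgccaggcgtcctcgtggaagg
RPLP1: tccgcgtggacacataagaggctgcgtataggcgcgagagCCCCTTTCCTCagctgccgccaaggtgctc
RPL12: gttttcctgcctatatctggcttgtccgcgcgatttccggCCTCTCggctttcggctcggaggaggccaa
RPL26: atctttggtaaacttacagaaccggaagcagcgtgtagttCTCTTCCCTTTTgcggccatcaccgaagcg
RPL39: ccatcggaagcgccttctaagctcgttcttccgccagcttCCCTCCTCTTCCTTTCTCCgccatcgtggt
The run is 7 bases long in RPSA, 9 in RPLP0, 11 in RPLP1, 6 in RPL12, 12 in RPL26 and 19 in RPL39.

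The RefSeq promoter table held 63 of the 80 genes. Of these, 46 (73%) had a C at the start with at least 4 further pyrimidines, beside 5.14% of the 27305 genes in the table. Among tested genes the median log2 fold change was -0.0059 for the 46 with such a run and -0.02 for the 17 without it. Other letters were counted on both strands in the window from 250 bases before the start to base 50. CCGGAAG, which holds the core bound by ETS factors, was found in 36.5% of the 63 genes and in 12.2% of all. AAGATGGCG, the core of the YY1 motif, was found in 7.94% and 2.14%. TATAAA was found in 7.94% against 14%, and CACGTG, the E-box that MYC and MAX bind, in 6.35% against 8.77%. These are matches of letters and not measured binding.

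The deposited counts summed to between 71498790 and 76566375 per library, and 3 counts, the smallest level taken as detected, corresponded to 0.0388 to 0.0424 CPM, the count scaled to library size. This floor accounts for counting error alone. Whether the 3 libraries of a group came from separate cultures is not stated in the labels, and p-values therefore measure a spread between samples that could be technical. STING1, the gene on the plasmid, had 2660, 2628 and 2360 counts in control libraries 1, 2 and 3 and 4327, 4226 and 3596 in STING libraries 1, 2 and 3. It rose 1.51-fold (log2 fold change 0.60, SE 0.078, edgeR adjusted p = 0.00221), and the groups did not overlap. GFAP, VIM, NES, CD44 and SOX9, markers of glioma cells, were expressed in every library, whereas S100B did not exceed 0.331 CPM. The glial markers together came to 3959 to 4108 CPM in the control and 3717 to 3845 CPM in the STING libraries, most of it VIM. GFAP measured 42.8, 34.9 and 39.5 CPM in control libraries 1, 2 and 3 and 21.3, 17.7 and 25.5 CPM in STING libraries 1, 2 and 3. Immune markers summed to at most 9.49 CPM, epithelial ones to at most 2.6 CPM and endothelial ones to at most 2.74 CPM. Neuronal markers came to 33.2 to 36.3 CPM, nearly all of it SYT1.

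Ribosomal protein mRNA as a whole differed little between the groups. All members together took 2.60%, 2.74% and 2.80% of the counts in control libraries 1, 2 and 3 and 2.78%, 2.66% and 2.58% in STING libraries 1, 2 and 3. The means were 2.71% ± 0.103 and 2.67% ± 0.101 (SD, n = 3), a difference smaller than the spread within either group. Large subunit genes took 1.60% ± 0.0666 and 1.59% ± 0.06, and small subunit genes 1.11% ± 0.0361 and 1.08% ± 0.0416 (SD, n = 3). The ranges of the groups overlapped.

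Of the 80 genes, 78 passed the filter on low counts and were tested. RPL3L and RPL39L, variants of RPL3 and RPL39 known from muscle and testis, had at most 28 counts in any library and were not tested. In the quasi-likelihood test of edgeR, adjusted after Benjamini and Hochberg over 21679 genes, 2 of the 78 fell, RPSA and RPS2, both of the small subunit, and 0 rose. The background was 0.89% of all tested genes lower and 0.604% higher. Among the 2544 genes that averaged 100 CPM or more, the abundance class that holds most ribosomal protein genes, 3.89% were called lower. The 2 calls are therefore close to the background for genes of this abundance. Without adjustment 18 of the 78 had p under 0.05, beside 3116 of 21679 genes overall. Over all genes 131 were higher and 193 lower, and scaling by total counts alone turned this split to 246 higher and 138 lower.

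Single members stayed close to their control level. The log2 fold changes ran from -0.42 (RPS10) to 0.17 (RPL39), with a median of -0.019, and the median over all tested genes was 0.001. The sign of the family's median depended on the scaling, since total-count scaling gave 0.012. There were 29 positive and 49 negative estimates, and 43 positive ones with total-count scaling. Over all 21679 tested genes 10885 estimates were positive, and 12461 with total-count scaling. A change of less than 1.1-fold in either direction was estimated for 69 of the 78 (88.5%), beside 52.1% of all tested genes and 82.2% of those with at least 100 CPM. The median standard error of a member was 0.052 on the log2 scale. No large subunit gene passed the test. The median was -0.019 for the 46 large subunit genes and -0.022 for the 32 small subunit genes.

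**Figure D1:**
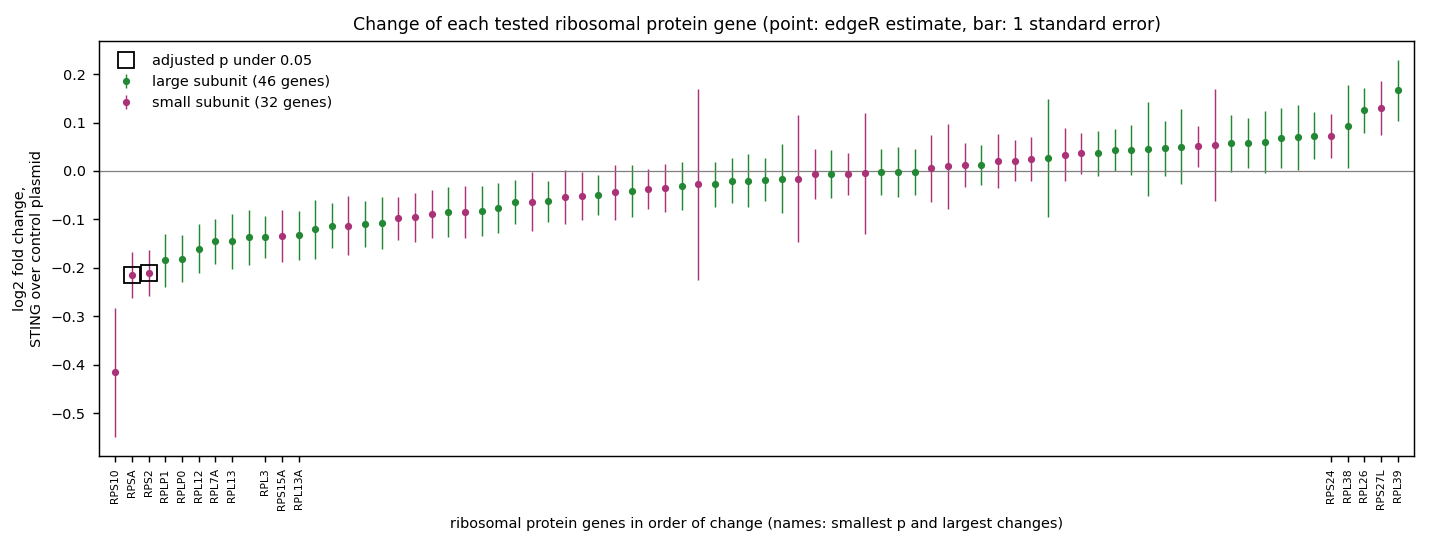
Log2 fold change (vertical axis, STING over control plasmid) of each of the 78 tested ribosomal protein genes, ordered by value along the horizontal axis, which names the genes with the smallest p-values and the largest changes; points are edgeR estimates, bars are 1 standard error, and colour gives the subunit. RPSA and RPS2 (squares) passed the test, RPS10 lies lowest at -0.42 with a standard error of 0.13, and RPL39 lies highest at 0.17.

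In 12 genes the groups did not overlap. The 9 whose STING libraries all lay below the controls included RPSA, RPS2, RPS10, RPLP0, RPL3, RPL7A, RPL12 and RPL23A. The 3 whose STING libraries all lay above were RPL26, RPL39 and RPS27L. Of all 21679 tested genes 9.73% separated downward and 10.1% upward, and among those of at least 100 CPM 19.4% and 12.9% did. For genes of similar abundance, the family's 9 lower and 3 higher members of 78 are thus fewer than the background shares give.

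The small subunit held both genes that passed the test. RPSA (chr3:39406716-39412542, plus strand) encodes a protein of the 40S subunit that is also known as the laminin receptor. Its level was 1034, 1040 and 1058 CPM in control libraries 1, 2 and 3 and 971, 867 and 862 CPM in STING libraries 1, 2 and 3. The group means were 1044 ± 12.2 and 900 ± 61.2 CPM (SD, n = 3), a ratio of 0.862 (log2 fold change -0.21, SE 0.048, edgeR adjusted p = 0.0366). STING library 1 lay nearest to the controls, and the groups did not overlap. In RNA from whole cultures, less of a transcript in every cell and fewer cells that hold it cannot be told apart. RPS2 (chr16:1962058-1964826, minus strand) encodes a protein at the channel through which mRNA enters the ribosome. It measured 844, 858 and 865 CPM in the controls and 798, 717 and 702 CPM in STING libraries 1, 2 and 3. The fitted ratio was 0.864 (log2 fold change -0.21, SE 0.048, edgeR adjusted p = 0.0411). As for RPSA, STING library 1 was the closest to the controls and the groups did not overlap.

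Both calls lay near the threshold, and several settings ended them while the estimates stayed negative. RLE and upper-quartile scaling kept both. With total-count scaling the log2 fold change was -0.18 for each gene, and the edgeR adjusted p was 0.0519 for RPSA and 0.0617 for RPS2. In limma on log2(FPKM + 1) the estimate was -0.19 for each, with limma adjusted p = 0.183 and 0.189. Leaving out any 1 library other than STING library 1 took the adjusted p to between 0.137 and 0.179 for RPSA and between 0.153 and 0.192 for RPS2, and leaving out STING library 1 took it to 0.00129 and 0.00181. Over these fits the log2 fold change lay between -0.27 and -0.19 for RPSA and between -0.27 and -0.18 for RPS2. RPS2 has many processed pseudogenes, and the rows named after it held 16.5% ± 0.151 of their joint counts in the controls and 16.7% ± 0.134 in the STING libraries (SD, n = 3). Summed with them, the log2 fold change of RPS2 was again -0.21 (edgeR adjusted p = 0.0469).

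The stalk is the flexible arm of the large subunit that recruits the elongation factors. RPLP0 anchors it, RPLP1 and RPLP2 form its acidic dimers, and RPL12 lies at its base. None of these 4 genes passed the test, and all stood lower in STING libraries 2 and 3 than in any control. RPLP0 (chr12:120196699-120201211, minus strand) measured 860, 876 and 882 CPM in control libraries 1, 2 and 3 and 828, 757 and 723 CPM in STING libraries 1, 2 and 3 (log2 fold change -0.18, SE 0.048, edgeR adjusted p = 0.077). RPLP1 (chr15:69452814-69456205, plus strand) measured 383, 401 and 406 CPM against 383, 334 and 331 CPM (log2 fold change -0.18, edgeR adjusted p = 0.113). STING library 1 lay within the control range for RPLP1, and below it for RPLP0. RPL12 (chr9:127447674-127451406, minus strand) measured 296, 309 and 319 CPM against 295, 264 and 268 CPM (log2 fold change -0.16, edgeR adjusted p = 0.13), so that its groups were separated by the distance between 295 and 296 CPM. RPLP2, which was taken up here after its values were seen, measured 154, 156 and 163 CPM against 157, 133 and 139 CPM (log2 fold change -0.14, edgeR adjusted p = 0.269). In all 4 genes STING library 1 held the highest STING level.

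**Figure D2:**
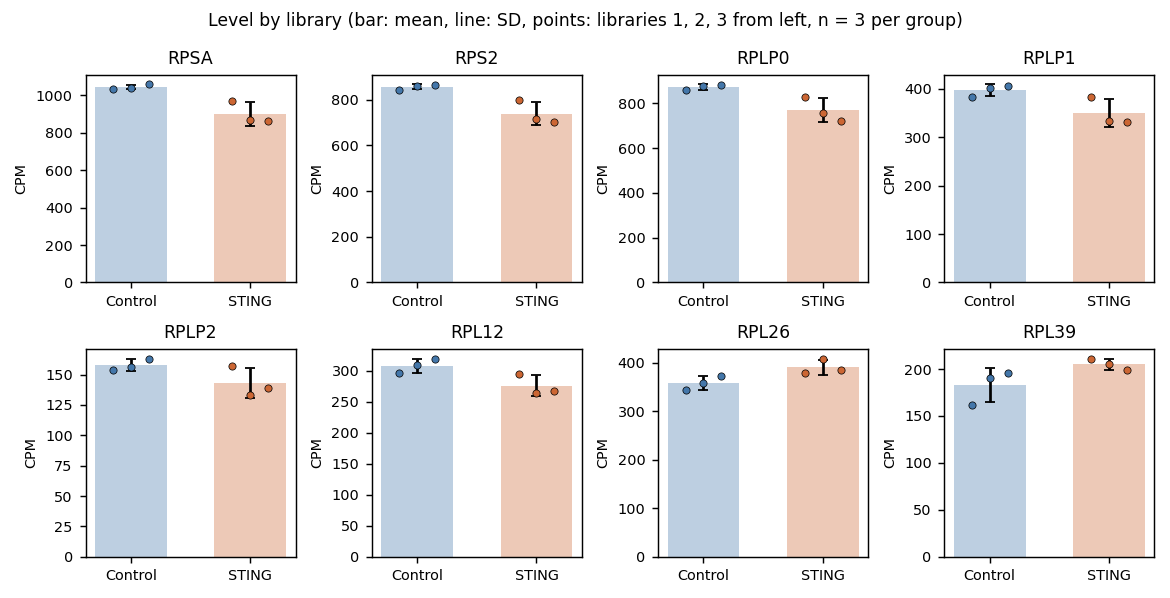
Level in CPM (vertical axis, from 0) of 8 ribosomal protein genes in the control and STING libraries; bars are means, lines are SD, and points are libraries 1, 2 and 3 from the left (n = 3 per group). In RPSA, RPS2, RPLP0, RPLP1, RPLP2 and RPL12 the first STING library lies above the other two STING libraries, and in RPL39 the first control library, at 162 CPM, lies below all others.

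Other large subunit genes with small unadjusted p-values were RPL3, RPL7A, RPL13A and RPL13. RPL3, whose protein reaches the peptidyl transferase centre, measured 514, 509 and 529 CPM in the controls and 492, 455 and 464 CPM in the STING libraries (log2 fold change -0.14, edgeR adjusted p = 0.138). RPL7A measured 565, 584 and 592 CPM against 558, 509 and 507 CPM (log2 fold change -0.15, edgeR adjusted p = 0.139). Neither gene's groups overlapped, and in both STING library 1 was again the highest STING library. RPL13A, whose protein is known to leave the ribosome and join a complex that silences translation in interferon-treated monocytes, measured 797, 829 and 825 CPM against 813, 720 and 702 CPM (log2 fold change -0.13, edgeR adjusted p = 0.229). RPL13 had an estimate of -0.14 on the log2 scale (edgeR adjusted p = 0.242) and RPS15A, of the small subunit, one of -0.13 (edgeR adjusted p = 0.249). In RPL13A, RPL13 and RPS15A the groups overlapped.

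The largest positive estimates belonged to RPL39, RPL26, RPS27L, RPL38 and RPS24, none of which passed the test. RPL39 encodes one of the shortest ribosomal proteins, which lines the exit tunnel for the growing peptide. It measured 162, 190 and 196 CPM in control libraries 1, 2 and 3 and 211, 205 and 199 CPM in STING libraries 1, 2 and 3 (log2 fold change 0.17, SE 0.063, edgeR adjusted p = 0.229). Control library 1 was the lowest, and without it the estimate was 0.085. RPL26 (chr17:8377516-8383213, minus strand) encodes a protein near the exit of the peptide tunnel and measured 344, 357 and 373 CPM against 379, 408 and 385 CPM (log2 fold change 0.13, SE 0.046, edgeR adjusted p = 0.203). RPS27L, a paralog of RPS27, measured 50.6, 54.8 and 54.5 CPM against 61.4, 56.1 and 57.4 CPM (log2 fold change 0.13, edgeR adjusted p = 0.296). RPL38 had an estimate of 0.09 on the log2 scale (edgeR adjusted p = 0.73), which became -0.01 without control library 1. RPS24 had one of 0.07 (edgeR adjusted p = 0.52).

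RPS10 had the most negative estimate of the family, and its value depends on how reads were shared with an overlapping gene model. RPS10 (chr6:34417454-34426069, minus strand) encodes a protein of the head of the small subunit. The tables also list RPS10-NUDT3, a read-through model on the same strand that joins RPS10 to its neighbour NUDT3. RPS10 had 22864, 22244 and 17562 counts in control libraries 1, 2 and 3 and 15709, 16385 and 17222 counts in STING libraries 1, 2 and 3. The read-through model had 485, 2774 and 9499 counts in the controls and 10911, 7609 and 6605 in the STING libraries. Where one was high the other was low, and the read-through model took between 2.08% and 41% of their joint counts. The estimate for RPS10 alone was -0.42 on the log2 scale (SE 0.13, edgeR adjusted p = 0.261). The joint level was 343 ± 22.1 CPM in the controls and 323 ± 20 CPM in the STING libraries (SD, n = 3), and the joint estimate was -0.08 on the log2 scale (SE 0.055, edgeR adjusted p = 0.546). Most of the RPS10 difference was thus absent from the joint counts.

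**Figure D3:**
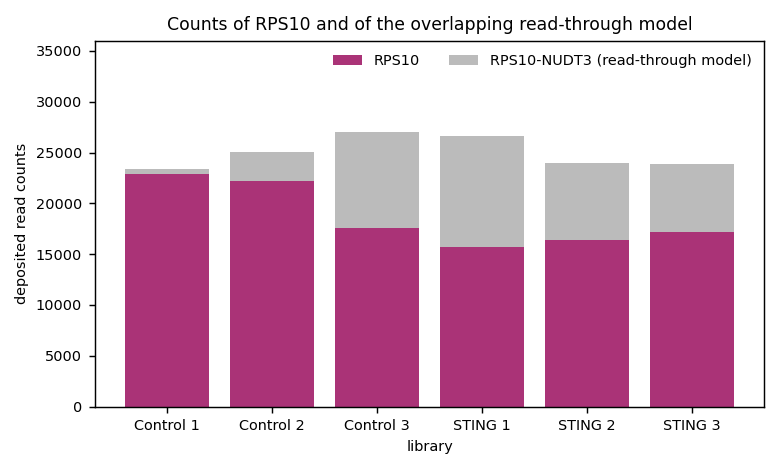
Deposited read counts (vertical axis) of RPS10 and of the read-through model RPS10-NUDT3, stacked, in each of the 6 libraries. The read-through part runs from 485 counts in control library 1 to 10911 in STING library 1, while the joint height stays between 23349 and 27061 counts.

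Read-through models overlap 2 further members, and their joint counts differed little. RPL36A-HNRNPH2 took from 0.231% to 16.2% of its joint counts with RPL36A, whose joint log2 fold change was -0.01 (edgeR adjusted p = 0.975). RPL17-C18orf32 took from 0% to 9.8% with RPL17, whose joint log2 fold change was 0.09 (edgeR adjusted p = 0.42). These 3 sums were computed after the data had been seen.

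The libraries differed from each other in ways that the groups do not describe, and they did so along the length and GC content of the members. Each gene's log2 level, with 1 CPM added, was set against its mean over the 6 libraries. The median deviation of the 78 genes was -0.038, 0.041 and 0.074 in control libraries 1, 2 and 3 and 0.057, -0.05 and -0.06 in STING libraries 1, 2 and 3. Control library 1 was the lowest of the 6 in 30 genes and STING library 3 in 26. Control library 3 was the highest in 30 and STING library 1 in 27. Thus 1 library of each group stood with the other group for a large share of the family.

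Among the 20 genes with the shortest coding sequence (75 to 369 bases), the median deviation was -0.17 in control library 1 and 0.13 in STING library 1, and between -0.04 and 0.08 in the other 4 libraries. Control library 1 was the lowest of all in 16 of these 20 and STING library 1 the highest in 14. RPL39, RPL38, RPS29 and RPL41 are of this kind. RPL41, whose mRNA codes for the shortest protein of the ribosome, measured 434, 502 and 511 CPM in the controls and 519, 485 and 490 CPM in the STING libraries (log2 fold change 0.05, edgeR adjusted p = 0.805). Among the 20 longest (612 to 1281 bases) the deviations of the 6 libraries lay between -0.07 and 0.08, and control library 1 was the lowest in 0 of them. Across the 78 genes the deviation correlated with log2 coding length at r = 0.65 in control library 1 and r = -0.53 in STING library 1, and between -0.26 and -0.053 in the other 4.

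GC content separated the STING libraries. Among the 20 genes with the highest GC content of their transcripts (54.3% to 63.5%), the median deviation was 0.07 in STING library 1 and -0.11 and -0.10 in STING libraries 2 and 3. Among the 20 with the lowest (41.9% to 46%), it was 0.02, 0.04 and 0. The correlation of the deviation with GC content over 78 genes was r = 0.21 in STING library 1 and r = -0.69 and -0.61 in STING libraries 2 and 3, and 0.31, 0.48 and 0.17 in the controls. The log2 fold change correlated with GC content at r = -0.53 (Spearman's rho -0.65) over the 78 members and at r = -0.095 (rho -0.19) over 21213 tested genes. Genes are not independent replicates and share the libraries, so these values are descriptions. Each library was also corrected for GC content and for the length implied by the deposited FPKM. The correlation of the log2 fold change with GC content over the members was then r = -0.15 (rho -0.27).

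**Figure D4:**
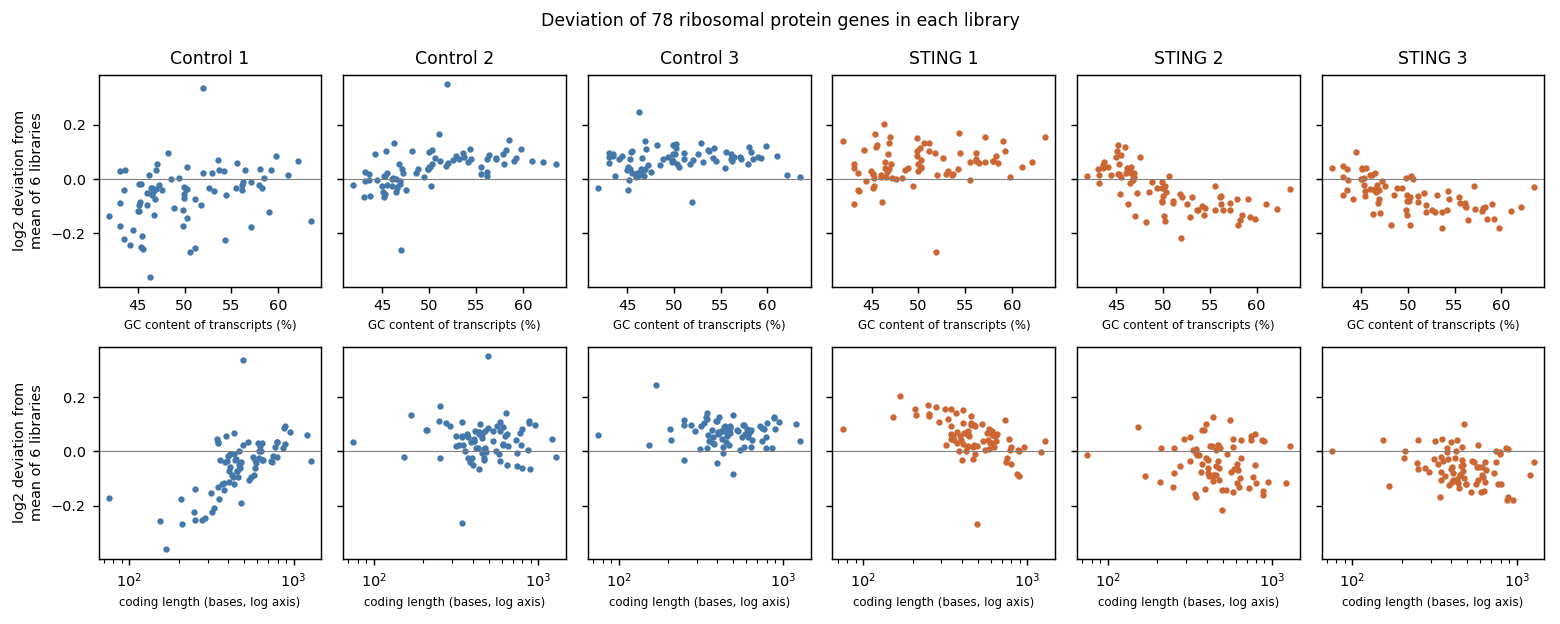
Log2 deviation of each of the 78 tested genes from its mean over 6 libraries (vertical axis), against GC content in percent (upper row) and coding length in bases on a log axis (lower row), 1 panel per library. Short genes lie low in control library 1 (r = 0.65 with log2 length) and high in STING library 1 (r = -0.53), and GC-rich genes lie low in STING libraries 2 and 3 (r = -0.69 and -0.61).

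The number of members called lower differed between settings, and 0 were called higher under any setting tried. With the GC and length correction 6 were called lower (RPLP0, RPLP1, RPS2, RPL7A, RPSA and RPL12), beside 3.52% lower and 2.56% higher of 13267 genes. That fit also tested fewer genes than the 21679 of the main test, so the correction and the smaller number tested changed together. DESeq2 called 8 lower, these 6 with RPL3 and RPS10, beside 4.26% lower and 3.24% higher of 12310 genes. A filter at a mean of 1 CPM, without any correction, gave 4 lower, beside 2.62% lower and 1.71% higher of 14901 genes. Without STING library 1, 16 were called lower, 11 of the large and 5 of the small subunit, beside 2.12% lower and 1.15% higher of 22658 genes. They included RPSA, RPS2, RPS9, RPS15, RPS15A, RPLP0, RPLP1, RPLP2, RPL3, RPL7A, RPL8, RPL10, RPL12, RPL13 and RPL13A. Without control library 3, 1 was called (RPS10), and without any other single library 0 were called. In the main test the share called lower was 3.89% among genes of at least 100 CPM and 0.89% among all. For the other settings the share among genes of that abundance was not computed. The length in the GC and length correction was the one implied by the deposited FPKM, not the coding length. Whether GC content and length account for the differences between groups was not tested beyond that correction.

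Levels of different members can be compared only per length, and the deposited FPKM values (fragments per kilobase, scaled to library size) used lengths far from those of the mature mRNAs. In the control libraries the mean FPKM ran from 2.68 (RPS29) to 707 (RPS12), a 264-fold range with a median of 93.3. The length implied by these values was 694 to 10687 bases with a median of 3290. The shortest annotated transcript with the principal coding sequence had a median of 707 bases, and the implied length was 1.1 to 36.1 times as long, with a median of 3.96. RPS29, with a transcript of 296 bases, was scaled by 10687 bases. RPS12, with one of 631 bases, was scaled by 694. The order of the deposited FPKM values therefore reflects gene models as well as mRNA.

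Per kilobase of that transcript the family was more even. The quartiles were 314 and 546 CPM per kilobase, 1.74-fold apart, against 53.7 and 138 FPKM, 2.57-fold apart. Among the highest were RPS18 at 1029 ± 59.5, RPL41 at 1028 ± 89.1, RPSA at 892 ± 10.4 and RPS2 at 868 ± 10.9 CPM per kilobase (SD, n = 3 controls). RPS18 and RPL41 differed by less than their SD, while RPSA and RPS2 lay farther apart than either SD. The lowest were RPS27L at 8.28 ± 0.367 and RPL37 at 27.3 ± 3.46 CPM per kilobase, and their annotated transcripts of 6434 and 7686 bases, far longer than their coding sequences of 252 and 291 bases, enter that value. RPS29 stood at 97.3 ± 21.1 CPM per kilobase. By deposited FPKM the highest included RPS12, RPL41, RPS2 and RPL13A, and the 5 lowest tested genes RPS29, RPS27L, RPL38, RPS15A and RPL34.

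Several members have a paralog, and some of these paralogs can take their place in the ribosome. Of the 8 pairs considered, 5 were counted above the floor in every library. The ratios below are of counts not scaled to length, so they compare libraries and not the levels of the paired genes. RPS27L reached 34.1%, 27.6% and 28.8% of the counts of RPS27 in control libraries 1, 2 and 3 and 31.7%, 33.5% and 33.9% in STING libraries 1, 2 and 3 (exact permutation test, two-sided p = 0.4). Their annotated transcripts have 6434 and 359 bases, and per kilobase the controls averaged 8.28 CPM for RPS27L and 498 CPM for RPS27. RPL22L1 reached 14% ± 0.582 of RPL22 in the controls and 14.5% ± 0.269 in the STING libraries (SD, n = 3, exact permutation p = 0.3). RPL26L1 reached 4.93% ± 0.421 and 4.68% ± 0.127 of RPL26 (exact permutation p = 0.5), and RPL36AL 30.6% ± 1.72 and 29% ± 1.49 of RPL36A (exact permutation p = 0.3). RPL7L1, whose protein works in ribosome assembly, reached 91.5% ± 7.16 and 95.5% ± 2.28 of RPL7 (exact permutation p = 0.4). Over the 5 pairs all Benjamini-Hochberg adjusted values of the exact permutation tests were 0.5, and 3 against 3 libraries cannot go below p = 0.1. RPL3L had 8, 0 and 0 counts in the controls and 6, 5 and 0 in the STING libraries, and RPL39L 5, 9 and 15 against 28, 7 and 0. RPL10L was not analysed here.

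Reads of this family can be divided among near-identical copies. The tables hold 715 rows named as pseudogenes of the members. Their share of the joint counts was largest for RPL9 (22.9% ± 0.171), RPL21 (21.1% ± 4.24), RPL7 (20.9% ± 0.747) and RPS2 in the controls (SD, n = 3). With pseudogene rows summed in, the same 2 genes were called, and 0 rose. The strand setting of the counting is not given in the sources used here, and 13 members overlap another model with at least 10% of their own count. RPS27L overlaps LACTB, which had 93.2% of its count, RPL36 overlaps LONP1 (106%) and RPL28 overlaps UBE2S (99.2%), each on the other strand. Without strand, reads in such overlaps cannot be assigned to one gene.

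The rest of the ribosome pathway was described from 9 lists with 172 genes. Of 34 tested factors that assemble and export the subunits, 1 rose and 0 fell, with a median log2 fold change of 0.078 and 33 positive estimates. Of all 21679 tested genes 0.604% were called higher, and 10885 had positive estimates. The share called higher among genes of at least 100 CPM was not computed. In 14 of the 34 factors all STING libraries lay above all controls. The background was 10.1% of all tested genes and 12.9% of those of at least 100 CPM. GNL3 (nucleostemin), a nucleolar GTPase, measured 126, 123 and 130 CPM in the controls and 144, 156 and 148 CPM in the STING libraries, 1.18-fold higher (log2 fold change 0.24, SE 0.048, edgeR adjusted p = 0.0204). Its groups did not overlap, and without a single library other than STING library 1 its adjusted p lay between 0.0619 and 0.141. LSG1, which releases the export adaptor NMD3 from the large subunit, had an estimate of 0.17 on the log2 scale (edgeR adjusted p = 0.0697).

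Noncoding hosts of small nucleolar RNAs share the TOP motif with the ribosomal protein genes and carry in their introns the guides that modify ribosomal RNA. Of 13 such hosts 2 rose and 0 fell, and 12 estimates were positive with a median of 0.17. Over all 21679 tested genes 0.604% were called higher, and 10885 estimates were positive with a median of 0.001. The share called higher among genes of at least 100 CPM, the level of both hosts that rose, was not computed. SNHG1 (chr11:62851984-62855953) measured 159, 153 and 154 CPM in control libraries 1, 2 and 3 and 214, 206 and 187 CPM in STING libraries 1, 2 and 3. It rose 1.30-fold (log2 fold change 0.38, SE 0.051, edgeR adjusted p = 0.00199), and without any 1 library the adjusted p was between 0.000858 and 0.0249. GAS5 measured 118, 122 and 128 CPM against 153, 150 and 133 CPM (log2 fold change 0.25, SE 0.056, edgeR adjusted p = 0.0409), with no overlap between groups. Its adjusted p was 0.107 after the GC and length correction, and between 0.07 and 0.216 without any single library other than STING library 3. The difference between these hosts and the ribosomal protein genes was not tested.

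Transcription of ribosomal RNA was represented by 17 genes of RNA polymerase I, of which 1 rose and 0 fell (median 0.064). The background was 0.604% of all tested genes higher and 0.89% lower, and the share called higher at 100 CPM or more was not computed. RRN3, the factor that makes the polymerase competent to start, measured 94.8, 88.7 and 94.5 CPM in the controls and 105, 123 and 111 CPM in the STING libraries, 1.22-fold higher (log2 fold change 0.28, SE 0.058, edgeR adjusted p = 0.0224). Without a single library other than STING library 1 its adjusted p lay between 0.0736 and 0.158. POLR1B, a core subunit, had an estimate of 0.2 on the log2 scale (edgeR adjusted p = 0.0804). Of 18 genes of RNA polymerase III, which makes 5S RNA, and of factors that act on it none passed (median 0.052). POLR3A and POLR3D each had an estimate of 0.16 (edgeR adjusted p = 0.0954 and 0.202). Of 25 genes that modify and process ribosomal RNA none passed either (median 0.025). WDR43, a factor of the small subunit processome, had an estimate of 0.23 on the log2 scale (edgeR adjusted p = 0.0645) and NOP56, a core protein of box C/D particles, one of 0.18 (edgeR adjusted p = 0.0835).

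The other 4 lists held elongation and TOP genes, ribosomal proteins and paralogs with other names, regulators, and stalling factors. Of 18 genes of elongation and other TOP mRNAs none passed. Their median was -0.031 with 14 negative estimates, and the median was -0.0007 with total-count scaling. Of all 21679 tested genes 10794 had negative estimates. EEF2, the translocase of elongation, measured 2017, 1993 and 1968 CPM in the controls and 1936, 1774 and 1736 CPM in the STING libraries (log2 fold change -0.13, edgeR adjusted p = 0.159). CCNI had an estimate of -0.09 (edgeR adjusted p = 0.346). Among 7 ribosomal proteins and paralogs outside the naming rule none passed (median -0.0044). RACK1, a scaffold on the small subunit, measured 628, 651 and 657 CPM against 625, 566 and 579 CPM (log2 fold change -0.13, edgeR adjusted p = 0.179). In the elongation and TOP list 4 of 18 genes separated downward and 0 upward, and outside the naming rule 1 of 7 did each way. The background was 9.73% downward and 10.1% upward of all tested genes, and 19.4% and 12.9% of those of at least 100 CPM. Among the separated genes, STING library 1 was the highest STING library in EEF2 and RACK1, but not in CCNI (181, 181 and 187 CPM in STING libraries 1, 2 and 3) or PABPC1 (673, 693 and 671 CPM). Of 19 tested regulators none passed (median 0.0019), and MYC measured 17.1, 19.2 and 20 CPM against 21.3, 21 and 20 CPM (log2 fold change 0.15, edgeR adjusted p = 0.437). Its partner MAX had an estimate of 0.12 (edgeR adjusted p = 0.387). Of 16 genes of stalling and quality control none passed (median 0.026), with PELO, which rescues stalled ribosomes, at 0.14 (edgeR adjusted p = 0.168). LTN1, the ubiquitin ligase of stalled large subunits, had an estimate of 0.16 on the log2 scale (edgeR adjusted p = 0.136).

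**Figure D5:**
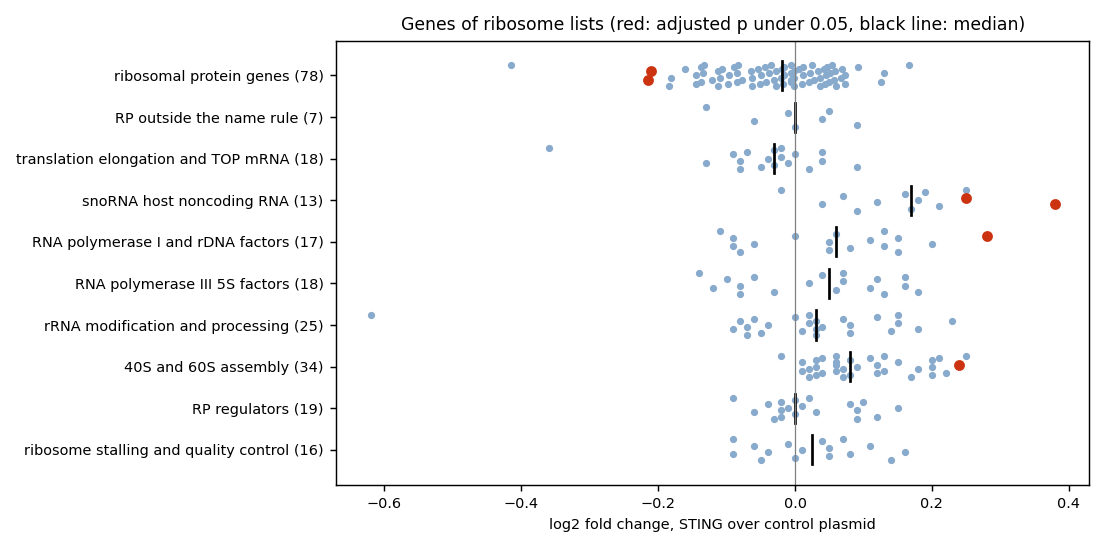
Log2 fold change (horizontal axis, STING over control plasmid) of the tested genes of each list, 1 row per list with the number of genes in brackets; points are genes, red points passed the test, and black lines are medians. The median is -0.019 for ribosomal protein genes, 0.17 for the noncoding hosts of small nucleolar RNAs and 0.078 for assembly factors.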

How the data were processed

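RNA was sequenced from 3 control and 3 STING libraries. Per the labels' protocols, 1 ug of total RNA went into Illumina TruSeq libraries. Bowtie 0.12.2 is listed in the submitters' processing notes. Which program, strand setting, build and annotation gave the counts is not given in the sources used here. The tables that the authors deposited hold, per the file headers, a read count and an FPKM value for each gene. Of the 42307 genes, 40903 have an identifier in GENCODE v29, and the start or the end of 89.7% of them matched to within 1 base, so GRCh38 is used for coordinates.

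The main test was that of edgeR 4.0.16 under R 4.3.3 (filterByExpr, TMM, robust quasi-likelihood test, two-sided, Benjamini-Hochberg adjustment, threshold 0.05) on all 6 libraries without covariates. Standard errors were derived from the estimate and the F value of the test and are approximate. CPM values use TMM-scaled library sizes. Transcript GC content, mature transcript lengths and coding sequences came from GENCODE v29, and start-site sequences from RefSeq (GRCh38.p14). The GC and length correction used the length implied by the deposited counts and FPKM, and no GENCODE length. Paralog ratios were compared by exact permutation tests (scipy 1.17.1). The procedure was tested on simulated data. Alternatives were total-count, RLE and upper-quartile scaling, 2 other filters, DESeq2 1.42.0, limma-voom and limma 3.58.1 on log2 FPKM (pseudocounts 1 and 0.1), a loess correction for GC content and length, pseudogene sums, leaving out each library and a replicate block. Read-through sums and levels per mature transcript were added after the data had been seen. Within groups the chi-square of the counts was 11.7 to 23 per gene, so no libraries were merged.

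The members, lists and tests were chosen with earlier results of these data known. Named were STING1; members past the threshold; the 12 members with the smallest p; the 5 largest changes in each direction; the 5 highest and lowest by FPKM; the paralogs; of each list the genes past the threshold and the 2 with the smallest p; and the 3 genes most like the members' mean level. Other genes were named after their values were seen. The values of some genes of the family are not reported here.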

Additional observations from a re-analysis of the deposited data

How the results depend on the processing

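Counts of calls depended on the test, the filter and the libraries. Against 324 over all genes, DESeq2 called 924, the GC and length correction 807, a filter at a mean of 1 CPM 645, and limma on log2 FPKM 11 (pseudocount 0.1) or 12 (pseudocount 1), and the range without any 1 library was 60 to 741. Of ribosomal protein genes 2 were called, against 8, 6 and 4 with DESeq2, the correction and the 1 CPM filter, 0 with either limma fit or total-count scaling, and 0 to 16 without any 1 library. For the large subunit these were 5, 4 and 2 against 0, with 1 when no filter was used and 0 to 11 without any 1 library. For the small subunit (2 called) both limma fits and total-count scaling gave 0, and leaving out libraries 0 to 5. For the other lists (4 called) DESeq2 gave 22, the correction 15, the 1 CPM filter 12, total-count scaling 13, limma 0 and leaving out libraries 1 to 14. Total-count scaling moved the median of these lists from 0.042 to 0.073. Of STING1 the log2 fold change was 0.61 and 0.55 in the limma fits, with limma adjusted p = 0.106 in each. RPL38 turned to -0.01 without control library 1 and otherwise lay at up to 0.16 without any 1 library. The median of the ribosomal protein genes was -0.065 to 0.013 without any 1 library. The range of member levels was 124-fold per mature transcript against 264-fold by FPKM. Over 34 named genes and 595 values, 497 kept direction and side of the threshold, 52 gained and 45 lost the call, and 1 reversed. The causes were not tested. The deviations of same-numbered libraries from their group means correlated at 0.11, -0.013 and -0.006. Those of differently numbered libraries correlated at -0.096 to 0.108. With 3 libraries per group these values cannot decide whether the numbers mark a shared culture or day, which the labels do not state. With the replicate block 120 genes, 0 ribosomal protein genes (0 of the small subunit) and 1 gene of the other lists were called, and RPSA and RPS2 had edgeR adjusted p = 0.125 and 0.14. At these depths every tested member had a mean above 20 CPM, so counting error was not the limit for them.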

Other observations

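Mitochondrial ribosomal proteins are encoded by separate nuclear genes with the prefix MRP. Of 78 such genes 1 rose and 0 fell. It was MRPL15 (log2 fold change 0.28, edgeR adjusted p = 0.0307), which was named after its value was seen. The median log2 fold change of the 78 was 0.026 with 48 positive estimates. Over all 21679 tested genes 0.604% were called higher, and 10885 estimates were positive. Mitochondrial ribosomes make the proteins encoded in the mitochondrial genome, whose transcripts took 4.46%, 4.43% and 4.32% of the counts in control libraries 1, 2 and 3 and 4%, 3.73% and 4.01% in STING libraries 1, 2 and 3. All STING libraries lay below all controls in that share. Leaving these transcripts out, the cytoplasmic ribosomal protein genes took 2.84% ± 0.108 in the controls and 2.78% ± 0.106 in the STING libraries (SD, n = 3).

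Of 10225 genes with a mean of at least 10 CPM outside the family, the 3 whose log2 level followed the mean of the ribosomal protein genes most closely over the 6 libraries were SGF29 (r = 0.994), LACTB2 (r = 0.991) and COX5A (r = 0.988), given as a description of 6 libraries. COX5A measured 74.3, 80.7 and 83.9 CPM in control libraries 1, 2 and 3 and 83.1, 76.8 and 74 CPM in STING libraries 1, 2 and 3. These genes were selected for this likeness, so that they share the pattern of the members is no result.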
